A study of Drosophila melanogaster with 7 samples.

Results

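The comparison described here is between replication forks of Drosophila S2 cells that met HU, the usual abbreviation of hydroxyurea, during their second labelling pulse and forks of control cells that did not. All fork, EdU segment and BrdU segment calls of the HU library and of its control library were taken. Together these libraries held 1879 forks, 26 with HU and 1853 in the control, out of 30854 forks in the 7 libraries of the series. The 26 HU forks lay on 26 reads whose mapped length ran from 15.7 to 68.3 kb, and the control was limited to reads in that range. That left 1070 control forks on 999 reads, 57.7% of the control forks, with 5 forks on shorter reads and 778 on longer reads left out. Unless stated otherwise, "control" below means these 1070 forks.

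S2 is a cell line grown in suspension or loosely attached, derived from Drosophila embryos. Every library considered here came from such cells grown at the same conditions and given 10 µM EdU for 7 min, washed, given 10 µM BrdU for 15 min, washed, and held in 50 µM thymidine for 20 min before harvest. In the HU group 1 mM HU was present in the BrdU medium, so HU came after the EdU pulse. The control group and the HU group each consist of 1 library, sequenced on a MinION under the same batch label. For each library, cells of flasks labelled at the same time were combined. Untreated replicate 1 and untreated replicate 2 had the same pulses without HU but belong to another batch and were sequenced on a PromethION. They held 6147 and 7744 forks in the same range of read lengths and are used to show how far libraries without HU differ from each other.

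A replication fork copies DNA as it moves, and thymidine analogues present at the time are built into the new strand. EdU and BrdU given in turn therefore leave an EdU segment behind and a BrdU segment ahead, the order gives the direction of travel, and the length of each segment gives the distance copied during that pulse. Hydroxyurea inhibits ribonucleotide reductase, the enzyme that makes deoxyribonucleotides, and is widely used to slow or stall forks by lowering the supply of these building blocks. The reads here are single DNA molecules in which DNAscent called each analogue from the nanopore signal, and its forkSense step called the segments and joined an EdU segment with a neighbouring BrdU segment into a fork.

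With 1 library a group there is no replicate check on any difference below and no p-value is given. Medians carry 95% intervals from exact binomial order statistics and shares carry 95% Clopper-Pearson intervals. Both kinds of interval cover only the sampling of forks within 1 library, not the difference between cultures. Where a difference is set against the spread of the 3 libraries without HU, that spread also includes batch and instrument.

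BrdU segments, made while HU was present, were shorter in the HU library than in any library without HU. The BrdU segment had a median of 2.25 kb with HU (interval 1.28 to 3.11 kb, 26 forks), with a range of 1.02 to 10.4 kb and quartiles at 1.23 and 3.20 kb. In the control the median was 5.18 kb (4.78 to 5.57 kb), with quartiles at 2.64 and 9.55 kb. The HU median was 0.433 of the control median. The untreated libraries had medians of 5.24 and 5.59 kb, so the 3 libraries without HU spanned 0.405 kb while the HU library lay 2.94 kb below the nearest of them. Divided by the pulse length, the median BrdU segment corresponded to 0.150 kb per min with HU and 0.346 kb per min in the control.

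The low end of the control distribution held most HU forks. Of the 26, 17 (65.4%, 44.3 to 82.8%) had a BrdU segment below the lower quartile of the control, and 1 exceeded its upper quartile. Below the same value lay 21.9% and 21.2% of the forks of the untreated libraries. BrdU segments under 1.5 kb made up 9 of 26 HU forks (34.6%, 17.2 to 55.7%) and 97 of 1070 control forks (9.07%, 7.41 to 10.9%). The HU range lay inside the control range of 0.604 to 30.0 kb, so single forks of both groups overlapped.

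The short HU segments lie close to the shortest calls in these data. The shortest segments in the control's deposited EdU and BrdU lists measured 1 kb, no HU fork had a BrdU segment under 1 kb, and 8 control forks did. Whether forks with still shorter BrdU segments were left out of the calls cannot be read from these files.

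**Figure D1:**
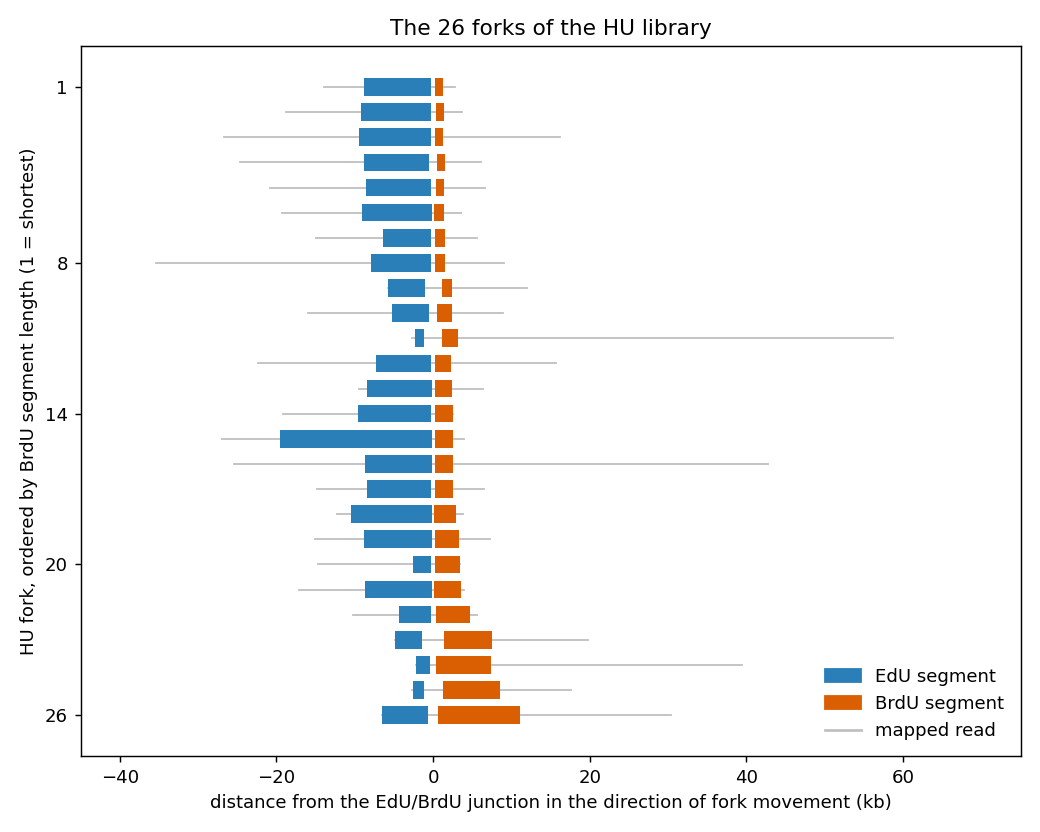
The 26 forks of the HU library, one row a fork, ordered by BrdU segment length from the shortest at the top, drawn by distance in kb from the junction between the EdU and BrdU segments along the direction of fork movement; blue bars are EdU segments, orange bars BrdU segments and grey lines the mapped reads. Most forks have a long EdU bar and a short BrdU bar, and the 4 longest BrdU bars, 6.12 to 10.4 kb, follow EdU bars that start at the end of their read.

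EdU segments, made before HU was added, were longer in the HU library. The median EdU segment measured 8.23 kb with HU (4.72 to 8.57 kb), with a range of 1.13 to 19.4 kb and quartiles at 4.71 and 8.61 kb. The control median was 4.73 kb (4.56 to 4.98 kb), with quartiles at 3.05 and 6.74 kb. The HU median was 1.74 times the control median and lay 2.82 kb above the highest library without HU, while those 3 libraries differed by 0.679 kb. The HU interval reaches down to 4.72 kb, so the sampling of 26 forks alone allows an HU median as low as the control's.

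Of the 26 HU forks, 16 (61.5%, 40.6 to 79.8%) had an EdU segment above the upper quartile of the control and 4 lay below its lower quartile. The corresponding shares above that quartile were 28.03% and 36.30% in the untreated libraries. The HU segments gathered in a narrow band: 10 of 26 (38.5%, 20.2 to 59.4%) measured 8 to 9 kb, against 54 of 1070 in the control (5.05%) and 5.11% and 6.51% in the untreated libraries. The bounds of that band were chosen after its values were seen.

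The long EdU and short BrdU segments occurred on the same forks. An EdU segment above the control's upper quartile together with a BrdU segment below its lower quartile was found on 13 of 26 HU forks (50%, 29.9 to 70.1%) and on 34 of 1070 control forks (3.18%, 2.21 to 4.41%). The median ratio of BrdU to EdU length on a fork was 0.274 with HU, 1.09 in the control, and 1.11 and 1.06 in the untreated libraries. The BrdU segment was the shorter one on 19 of 26 HU forks (73.1%, 52.2 to 88.4%) and on 478 of 1070 control forks (44.7%, 41.7 to 47.7%). Across forks, Spearman's rho between the BrdU and EdU lengths was -0.39 over the 26 HU forks and 0.273 over the 1070 control forks, where all points of a group share a library and a read's length limits the sum of both segments.

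The whole fork track, from the start of EdU to the end of BrdU, differed less, and its direction depended on the read lengths compared. Its median was 10.5 kb with HU (9.54 to 11.2 kb) and 12.2 kb in the control (11.5 to 12.6 kb), a ratio of 0.861. The untreated libraries had medians of 12.5 and 13.5 kb. HU tracks ran from 5.52 to 22.1 kb, with 20 of 26 between the control quartiles of 8.16 and 17.4 kb. Between the same values lay 3306 of 6147 and 4062 of 7744 forks of the untreated libraries. HU reads were shorter, as described below, and a read limits the length of its track.

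**Figure D2:**
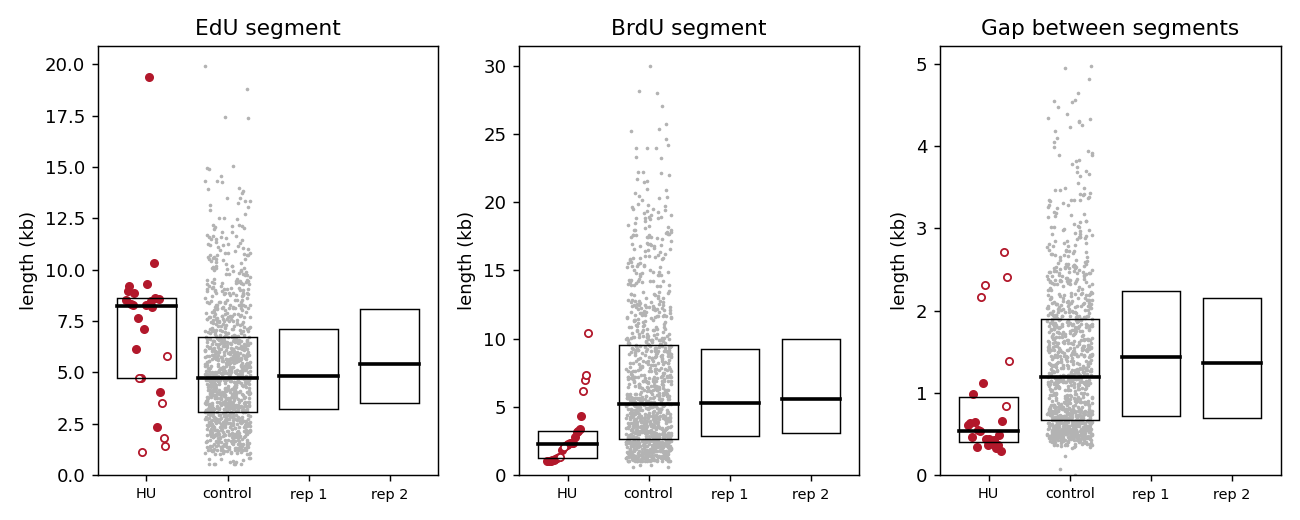
Lengths in kb of the BrdU segment, the EdU segment and the gap between them for the HU library, the control and the untreated replicates (rep 1 and rep 2), on reads of 15.7 to 68.3 kb; red points are HU forks, open where the EdU segment starts within 0.5 kb of the read end, grey points are control forks, boxes are quartiles and thick lines medians. The HU medians are 2.25 kb for BrdU, 8.23 kb for EdU and 0.540 kb for the gap, against 5.18, 4.73 and 1.196 kb in the control.

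The stretch between both segments, which forkSense assigned to neither analogue, was also shorter with HU. Its median was 0.540 kb with HU (0.425 to 0.839 kb, range 0.296 to 2.71 kb) and 1.196 kb in the control (1.13 to 1.27 kb). Gap medians were 1.44 and 1.37 kb in the untreated libraries. With HU, 18 of 26 gaps (69.2%, 48.2 to 85.7%) fell below the control's lower quartile of 0.672 kb and 4 exceeded its upper quartile of 1.90 kb.

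HU reads were shorter than control reads even inside the shared range, with medians of 22.7 kb (20.5 to 30.9 kb) and 41.1 kb (39.8 to 42.1 kb). Each HU fork was therefore also ranked among the control forks on reads within 20% of its own read length, a set of 66 to 436 forks. At such matched length the BrdU segment stood at a median percentile of 20.9, below the 50th for 20 of 26 forks. The EdU segment stood at a median percentile of 90.4, above the 50th for 21 of 26, and the gap at 15.8, below it for 19 of 26. Read length so matched left the BrdU segments low and the EdU segments high. Against these matched control forks the track ratio turned to 1.18, so the shorter HU tracks were not seen once read lengths were matched.

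Each fork also carries 4 analogue fractions, shares of analogue calls within its segments. The files do not name the analogue each fraction counts. The first pair was read as belonging to the EdU segment and the second to the BrdU segment, since in the 3 libraries without HU the share of exact zeros in the lower value of each pair fell more with the length of its own segment. In the control, zeros in the first pair's lower value made up 20% of forks with shorter EdU segments and 5.05% of those with longer ones, a ratio of 3.96, against 1.91 for BrdU segments. For the second pair the control ratio was 2.41 by BrdU length and 2.12 by EdU length, a small margin, with 3.69 against 1.75 and 2.82 against 1.80 in the untreated libraries. In all 26 HU forks and all 1070 control forks the second value of each pair was the higher one, and the values are called lower and higher below.

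The higher fraction of the BrdU segment was lower with HU. Its median was 66.3% with HU (60.5 to 71.0%, range 42.7 to 90.6%) and 77.1% in the control (76.3 to 77.7%), a difference of -10.8 percentage points. The untreated libraries had 80.1% and 80.8%, so the libraries without HU differed by at most 3.71 points. With HU, 17 of 26 forks (65.4%, 44.3 to 82.8%) lay below the control's lower quartile of 70.0% and 1 above its upper quartile of 83.0%. The untreated libraries had 16.5% and 15.3% of forks below that lower quartile.

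The higher fraction of the EdU segment, made before HU, differed much less. Its median was 87.7% with HU (85.6 to 90.4%) and 88.8% in the control (88.4 to 89.1%), a difference of -1.10 points. The untreated libraries had 89.9% and 90.5%, so the HU median lay below every library without HU. Its distance from the control, the nearest of them, was smaller than the spread of 1.73 points between those libraries. HU forks spread evenly around the control, 7 of 26 below its lower and 7 above its upper quartile. The lower fraction of the EdU segment had a median of 0.631% with HU (0.302 to 1.13%) and 1.12% in the control (1.02 to 1.23%). The lower fraction of the BrdU segment had a median of 3.31% with HU, in a wide interval of 0.524 to 6.31%, and 1.71% in the control (1.58 to 1.90%). For that fraction HU forks were found at both extremes: 8 of 26 lay below the control's lower quartile and 12 above its upper quartile, and exact zeros made up 6 of 26 HU forks (23.1%, 8.97 to 43.6%) against 75 of 1070 in the control (7.01%, 5.55 to 8.71%).

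**Figure D3:**
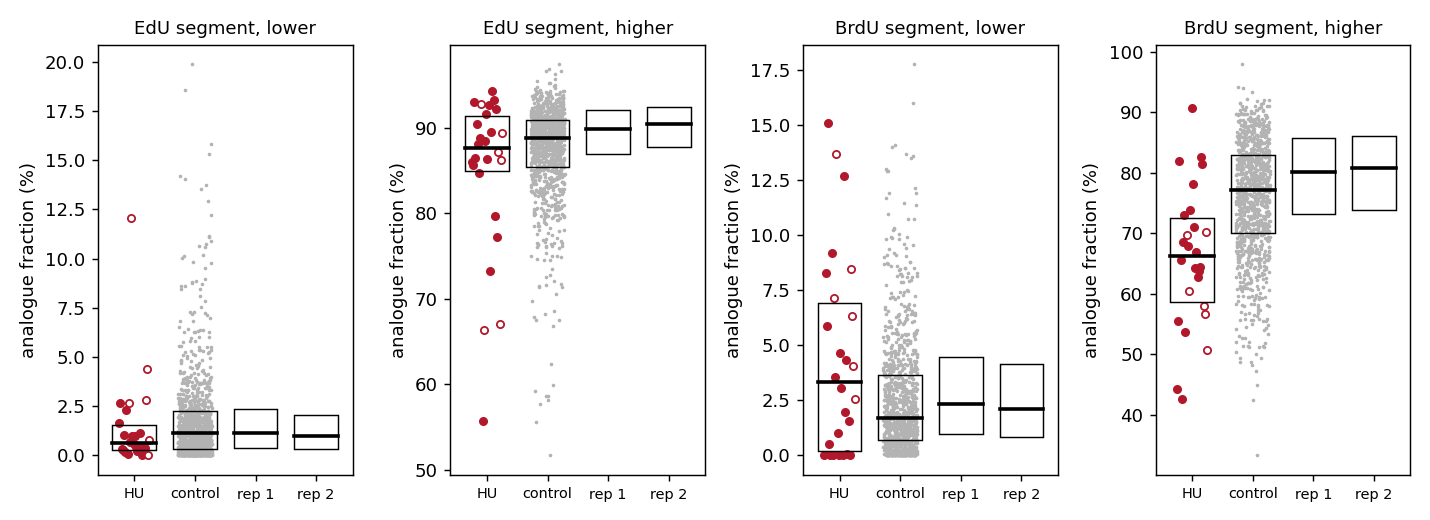
The 4 analogue fractions of each fork in percent for the HU library, the control and the untreated replicates (rep 1 and rep 2), on reads of 15.7 to 68.3 kb; points, boxes and lines are as in the plot of segment lengths. The BrdU segment's higher fraction has a median of 66.3% with HU and 77.1% in the control, while the EdU segment's higher fraction has medians of 87.7% and 88.8%.

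In libraries without HU, longer BrdU segments carried a higher fraction of analogue. Spearman's rho between the BrdU segment's higher fraction and its length was 0.588 over the 1070 control forks, and 0.527 and 0.545 in the untreated libraries. It was 0.0783 over the 26 HU forks. These are descriptions over forks that share a library, and fractions of short segments rest on fewer positions.

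The difference was therefore also taken at like BrdU length. Among BrdU segments of up to 3.5 kb the median fraction was 67.0% over 21 HU forks and 70.7% over 369 control forks. Against control forks whose BrdU segment was within 20% of each HU fork's own, a set of 48 to 178 forks, the median difference was -5.72 points, 17 of 26 HU forks lay below the matched control median, and their median percentile was 28.5. The matched difference was thus smaller than the unmatched -10.8 points, and it rested on the longest segments. Over the 22 HU forks with BrdU segments of up to 5 kb the median matched difference was -1.61 points, with 13 below and 9 above their matched control median. Over the 4 longer ones it was -20.8 points, with all 4 below.

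The 4 HU forks with BrdU segments over 5 kb had higher fractions of 58.0, 56.6, 70.3 and 50.7%, where control forks of like length had medians of 77.3 to 81.3%. Of the 171 control forks matched to the fork of 6.93 kb, 1 was lower, and of the 174 matched to the fork of 10.4 kb none was. Their differences from the matched medians ran from -30.6 to -8.81 points. Some short HU segments lay as far below: the forks of 1.02 and 1.07 kb, at 44.4 and 42.7%, differed by -23.6 and -24.6 points, with 0 of 48 and 0 of 56 matched control forks lower. The 22 forks with shorter segments ranged from -24.6 to 19.8 points around their matched medians, while all 4 long ones lay below.

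**Figure D4:**
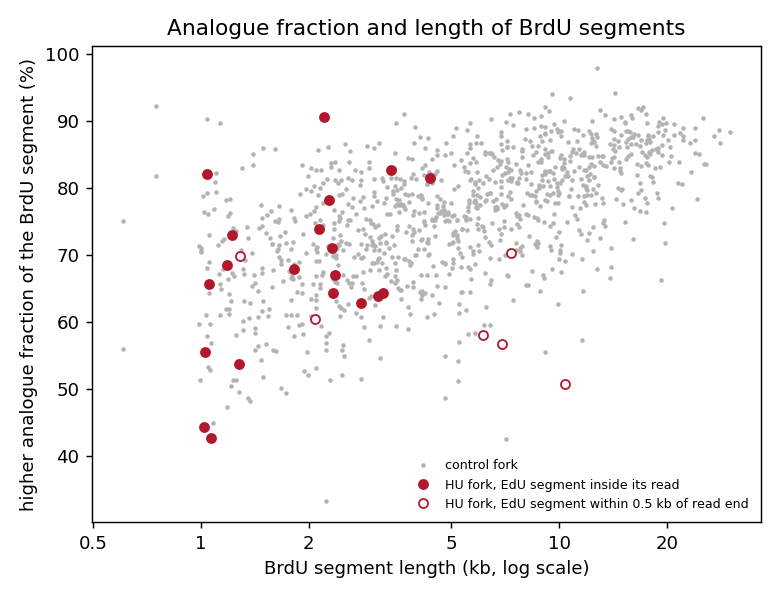
The BrdU segment's higher analogue fraction in percent against BrdU segment length in kb on a log scale, for the 26 HU forks (red, open where the EdU segment starts within 0.5 kb of the read end) and the 1070 control forks (grey). Control forks rise with length, while the 4 HU forks beyond 5 kb lie at 50.7 to 70.3%.

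The HU forks were also divided by where their EdU segment began on the read. On 6 of 26 HU forks (23.1%, 8.97 to 43.6%) and 187 of 1070 control forks (17.5%, 15.2 to 19.9%) it lay within 0.5 kb of the read end, so its full length was not seen. In these 6 forks the BrdU segments measured 1.28, 2.08, 6.12, 6.93, 7.32 and 10.4 kb and the gaps 2.17, 2.31, 2.71, 0.839, 2.41 and 1.38 kb. In the other 20 forks BrdU segments ran from 1.02 to 4.35 kb with a median of 2.17 kb, and gaps from 0.296 to 1.11 kb with a median of 0.449 kb. The ranges overlapped, with 2 of the 6 BrdU segments and 1 of the 6 gaps inside the range of the other 20 forks, and all HU BrdU segments over 5 kb and all HU gaps over 1.2 kb were among the 6 forks whose EdU segment reached the read end.

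The control showed a difference in BrdU length of the same direction between such forks, and gap medians of 1.22 and 1.19 kb. Control forks with the EdU segment at the read end had a median BrdU segment of 9.41 kb over 187 forks, and the other 883 had 4.47 kb. BrdU segments over 5 kb made up 75.9% of the former and 46.3% of the latter (43.0 to 49.7%). With HU the shares were 4 of 6 (66.7%, 22.3 to 95.7%) and 0 of 20, which allows up to 16.8%. Gaps over 1.2 kb made up 50.8% and 49.6% of these control forks, and 5 of 6 and 0 of 20 with HU.

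All 6 of these HU forks were on the lagging strand, as inferred from the direction of the fork and the strand of the read, against 103 of 187 (55.1%) in the control. The thresholds of 5 and 1.2 kb were chosen after the HU values were seen. Without these 6 forks the HU medians were 2.17 kb for BrdU, 8.38 kb for EdU and 67.4% for the BrdU segment's higher fraction, against 4.47 kb, 5.05 kb and 76.0% in the corresponding control forks.

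Segments that end at a read end are cut short, so forks with room on both sides were also compared. With at least 2 kb of read beyond both ends, 12 HU forks had BrdU segments of 1.03 to 3.11 kb with a median of 1.25 kb, and EdU segments with a median of 8.28 kb. The 561 such control forks had medians of 4.41 and 4.69 kb. Where at least 2 kb of read followed the BrdU segment, 15 of 19 HU forks (78.9%, 54.4 to 93.9%) and 246 of 776 control forks (31.7%, 28.4 to 35.1%) had a BrdU segment under 3.5 kb. Short HU segments were thus found well inside reads as well as at their ends.

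A read holds 1 strand of the new DNA, so each fork was seen through either its leading strand, copied continuously, or its lagging strand, copied in Okazaki fragments. The HU library had 15 leading and 11 lagging forks. The 15 include 2 forks on the mitochondrial genome, classed by the same rule although the nuclear machinery does not copy that genome. Medians by strand, here and in the control, include mitochondrial forks. Leading-strand BrdU segments had a median of 1.28 kb with HU (1.05 to 2.37 kb) and 4.42 kb in the control over 684 forks. Lagging-strand BrdU segments had a median of 2.79 kb with HU (2.08 to 7.32 kb) and 6.96 kb in the control over 386 forks. BrdU segments were shorter with HU on both strands, and in both groups the lagging-strand median was the longer.

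Of the 9 HU forks with the shortest BrdU segments, 8 were leading. EdU segments had medians of 8.26 kb on leading and 5.78 kb on lagging HU forks, the latter including the 6 cut at the read end, against 4.59 and 5.08 kb in the control. The BrdU segment's higher fraction was 67.0% and 63.8% with HU and 75.9% and 79.2% in the control.

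DNAscent gives each fork with enough read ahead of it a stall score between 0 and 1, in which higher values stand for a fork more likely to have stalled, and a negative code to the others. Of the HU forks, 9 of 26 (34.6%, 17.2 to 55.7%) were scored and 17 carried the code -3. In the control 507 of 1070 (47.4%, 44.4 to 50.4%) were scored, 501 carried -3 and 62 carried -1. Of the 17 unscored HU forks, 16 ended less than 6.7 kb before the read end, and the other one had 55.5 kb of read ahead of it. Among the 9 HU forks with the shortest BrdU segments, 6 were unscored.

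A score of at least 0.5 was reached by 3 of 9 scored HU forks (33.3%, 7.49 to 70.1%) and 128 of 507 scored control forks (25.2%, 21.5 to 29.3%). The untreated libraries had 18.4% and 21.0%. The 9 HU scores ran from 0.00611 to 0.822, and the interval of the HU share includes the control share, so no difference in stall score was detectable with 9 forks.

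The HU and control libraries were each processed in 2 output blocks, named First24 and Last48 in the file headers. Block First24 held 21 HU forks with a median BrdU segment of 2.28 kb, EdU segment of 8.20 kb and BrdU-segment higher fraction of 67.0%. The same block of the control, 469 forks, had 5.42 kb, 4.70 kb and 77.2%. Block Last48 held 5 HU forks with 2.21 kb, 8.26 kb and 64.4%, against 5.00 kb, 4.74 kb and 77.0% over 601 control forks. The direction of each of these differences was the same in both blocks.

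Of the 26 HU forks, 24 lay on chromosome arms, 10 of them on 3R, 5 each on 2R and 3L, and 2 each on 2L and X. The other 2 were on the mitochondrial genome, which is copied by its own polymerase rather than by the nuclear replication machinery. Their BrdU segments measured 3.22 and 4.35 kb, both longer than the median of the nuclear HU forks of 2.17 kb, and their EdU segments 2.35 and 4.04 kb. The 12 mitochondrial control forks had BrdU segments of 1.57 to 4.05 kb with a median of 2.02 kb and EdU segments of 1.01 to 2.56 kb with a median of 1.55 kb. Mitochondrial segments in the HU library thus lay toward the long end of, or above, the control range for both pulses, with only 2 forks.

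The 24 nuclear HU forks lay on 2L, 2R, 3L, 3R and X, most often on 3R. Of their junctions between EdU and BrdU, 19 fell inside a protein-coding gene of RefSeq's annotation of the same build, Release 6 plus ISO1 MT (dm6). The share of control junctions inside genes was not computed, so 19 of 24 is a description of position only. Of the 24 junctions, 17 were also crossed by forks of the control or untreated libraries, here on reads of any length. These were 55 forks in all, 1 to 5 at each junction, of which 38 (69.1%) moved in the same direction. How often forks without HU share direction at a junction was not computed, so this share has no reference value. In the last 5 Mb of 2L, 2R, 3L, 3R or X before the centromere lay 8 of 24 HU forks (33.3%, 15.6 to 55.3%) and 169 of 1046 control forks (16.2%, 13.98 to 18.53%), with 16.6% and 16.0% in the untreated libraries. This window was chosen after the positions were seen, and the HU interval includes the control share. The proximal HU forks had a median BrdU segment of 2.35 kb and the other nuclear HU forks 1.97 kb, against 5.01 and 5.26 kb in the control. EdU medians were 5.25 kb (1.13 to 8.53 kb) and 8.43 kb (7.13 to 9.21 kb) with HU, against 4.98 and 4.74 kb in the control. The BrdU segment's higher fraction was 59.2% (44.4 to 69.8%) and 69.4% (62.8 to 78.2%) with HU, against 77.8 and 77.1% in the control. Most of the proximal HU forks were among the 6 HU forks whose EdU segment reached the read end, so their full EdU length was not seen. The proximal forks also included most of the HU forks with BrdU segments over 5 kb. Position on the arm and these traits cannot be told apart here. The cause of the differences was not tested.

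The 4 HU forks with the shortest BrdU segments were leading-strand forks with EdU segments of 8.30 to 9.21 kb. The shortest, 1.02 kb of BrdU after 8.53 kb of EdU, moved rightward on 2R with its junction at position 2929010, where the nearest protein-coding gene is Scp1, a sarcoplasmic calcium-binding protein, 3.58 kb away. A rightward fork on X with its junction at 153071, inside tyn, had 1.03 kb of BrdU after 8.94 kb of EdU. A leftward fork on 3R with its junction at 28319147, inside larp, which encodes an RNA-binding protein of the La-related family, had 1.04 kb after 9.21 kb. The last of these 4 moved rightward on 3R with its junction at 30740227, 2.65 kb from CG15543, and had 1.05 kb after 8.30 kb.

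These 4 forks shared their segment lengths and not their fractions. The BrdU segment's higher fraction was 44.4% near Scp1, 55.5% in tyn, 82.0% in larp and 65.6% near CG15543. The fork in larp was the one of them with a stall score, 0.00611, close to the lowest possible value, with 15.0 kb of read ahead of it.

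The 4 HU forks with the longest BrdU segments were lagging-strand forks whose EdU segments, 1.41 to 5.78 kb, were cut at the read end. A leftward fork on 3L at 25105602, 1.99 kb from Set1, which encodes a histone H3 lysine 4 methyltransferase, had 10.4 kb of BrdU. A rightward fork on 3L at 2480176, inside Svil, which encodes the actin-binding protein supervillin, had 7.32 kb. Those on 3R were a leftward fork at 835432 inside Myo81F, a myosin gene, with 6.93 kb and a rightward fork at 2987135 inside Pzl, a gene of the Piezo family of mechanosensitive channels, with 6.12 kb.

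Stall scores of at least 0.5 were found in 2 of these long forks, 0.822 in Myo81F and 0.627 near Set1, while those in Svil and Pzl scored 0.0236 and 0.0553. The third HU fork above 0.5 moved rightward on 3R at 17225337, 2.26 kb from CG31262, and scored 0.821 with 1.28 kb of BrdU after 7.64 kb of EdU and a BrdU-segment higher fraction of 53.8%. High scores thus occurred both with short and with long BrdU segments.

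Pzl held a second HU fork, leftward with its junction at 3029340, 2.08 kb of BrdU and its EdU segment of 1.13 kb also at the read end. The Pzl forks were on different reads, 42.2 kb apart at their junctions, and moved toward each other with 31.5 kb between their BrdU ends. The longest EdU segment of the library, 19.4 kb, belonged to a leftward lagging-strand fork on 2R inside sca, which encodes a secreted glycoprotein, and was followed by 2.32 kb of BrdU.

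The separate lists of segments held no more for the HU library than its forks did. They gave 26 EdU and 26 BrdU segments, each belonging to a listed fork. In the control 1056 EdU segments with a median of 4.79 kb and 1039 BrdU segments with a median of 5.41 kb lay on reads in the range. No replication origin, where forks diverge, and no termination, where they meet, was called with HU. Over all control reads, 1616 of them with a fork, there were 97 origins and 134 terminations. With 26 reads, 0 origins allow up to 11.5 per 100 reads, taken as 3 divided by the number of reads, counting error only. With so few reads, the absence of calls with HU is not read as a difference. No read was shared between the libraries.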

How the data were processed

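Long DNA of S2 cells was sequenced on nanopores. Reads were aligned to dm6 with minimap2 2.24 and handled with SAMtools 1.10, per the submitters' processing notes. Analogue calls, segments and forks came from DNAscent, version 4.0.1 for every fork of the HU and control libraries and 4.0.1 or 4.0.3 for the untreated ones, per the file headers. The deposited fork files give each segment length in bp, 4 fractions between 0 and 1, and a stall score or a negative code. The positions, strands and segment coordinates, values of another kind, are used as the authors deposited them. The fractions are printed here as percent. No source at hand names the basecaller or read filters. The control and HU groups come from the sample titles, which write HU without spelling it out.

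From these values medians, quartiles and shares were computed with Python 3.11.15, numpy 2.4.6, pandas 2.3.3 and scipy 1.17.1, and drawn with matplotlib 3.10.9. The median and its interval were tested on control BrdU lengths drawn at random and scaled by known factors. The derived read-end distances, gap, junction and strand were tested on a small made-up example. The other steps were not tested in this way. The gap is the track minus both segments, and the junction is the middle of the gap. A leading-strand fork is a forward read with a rightward fork or a reverse read with a leftward one. Depth is the number of forks, which limits the precision of all HU values. Forks named by position are the 4 with the shortest and the 4 with the longest BrdU segment and those with a stall score of at least 0.5, and the other forks named, in Pzl and sca, were picked with their values in view. The members, measures and named lists were chosen with earlier results of these data known. Other pulse lengths in the series are not analysed here, and no DNA sequence is shown.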

Additional observations from a re-analysis of the deposited data

How the results depend on the processing

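The HU to control ratio of BrdU segment length kept its direction in all 16 alternatives (0.283 to 0.507), and so did the EdU ratio in 17 (1.14 to 2.02), the EdU segment's lower fraction in 17 (-0.759 to -0.116 points) and the BrdU segment's higher fraction in 18 (-15.4 to -1.61 points). Among these alternatives, some were not planned beforehand. These include the BrdU end at least 2 kb inside the read, block First24 alone, and control forks matched on EdU segment length. Limiting forks to DNAscent 4.0.1 was planned and not run, since every HU and control fork already had it. Matching control reads within 20% of each HU read length moved the EdU ratio to 1.87 and reversed the track ratio to 1.18. Matching control forks within 20% of BrdU length, an alternative chosen after seeing the data like that on the EdU end, moved the EdU ratio to 2.02 and the difference in the BrdU segment's higher fraction to -5.72 points, or -1.61 points for the 22 HU forks with BrdU segments of up to 5 kb. The track ratio was 0.768 with control reads of any length, 0.939 with both ends 2 kb inside the read, 0.930 on leading-strand forks and 0.776 against untreated replicate 2. The EdU segment's higher fraction reversed to 0.049 points on lagging-strand forks. The BrdU segment's lower fraction reversed to -0.822 points on leading-strand forks and -0.0704 points with the EdU end at least 0.5 kb inside the read. The stall share difference of 8.09 points reversed to -6.95 on rightward forks, -4.94 with both ends inside, -0.862 on leading-strand forks and -3.33 with the EdU end inside. The causes were not tested.

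No paired analysis was possible because each group has 1 library, and for the same reason no library could be left out. HU and culture cannot be told apart. The number of HU forks, 26 with 9 scored, limits every value.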
